A study of Arabidopsis thaliana with 4 samples.

Results

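EXPA7 (AT1G12560) and EXPA18 (AT1G62980) are the root hair alpha-expansin genes of Arabidopsis thaliana, and their transcripts were compared between roots of the nai1-1 mutant and roots of wild-type Col-0. Both genes were taken by name from the annotation of the array, where each has 1 probe that is assigned to no other gene. These 2 probes are part of 9335 single-gene probes, for 9254 genes, among 22575 probes on the array. The pick was by name and used no measured value, but earlier results of these data were known when it was made.

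Expansins are secreted proteins that loosen the plant cell wall at acidic pH without cutting its polysaccharides, and walls that loosen this way can extend under turgor. Alpha-expansins and beta-expansins are the branches with known wall-loosening activity, while the expansin-like A and B proteins are related in sequence and have no established activity. EXPA7 and EXPA18 are known for expression in the hair-forming cells of the root epidermis, from the time a hair begins to bulge, under the control of root hair regulators such as the RHD6 and RSL4 basic helix-loop-helix proteins. Reduced EXPA7 expression is known to shorten root hairs.

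The mutant nai1-1 lacks the usual ER bodies, long ER-derived compartments of Brassicaceae cells, and carries a lesion in NAI1, a gene for another basic helix-loop-helix protein. Plants of both genotypes were 20 days old, had received no treatment, and had grown together on plates of MS medium with 1% sucrose and 0.5% gellan gum at 22 °C in continuous light. Each genotype was a pool of 3 plants, and both genotypes were hybridised on each of 4 two-colour arrays. The mutant was labelled with Cy3 on arrays 1 and 4, and with Cy5 on the other pair. Nothing in the labels tells whether the arrays stand for separate pools, so the spread behind each p-value may be technical.

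Every value is a log2 ratio, mutant over wild type, and a fitted mean is given with its standard error (SE, n = 4). The direction rests on the convention that the scanner software writes Cy5 over Cy3, which the submitters do not state, and under the opposite convention every sign below would turn. Absolute signal was not analysed here, so the level of each gene in roots cannot be given. The threshold was an adjusted p of 0.05 in a limma fit across all 22575 probes with a genotype and a dye term. In that fit 112 probes (0.496%) passed, of which 3 (0.0133%) were higher in the mutant. NAI1 was below Col-0 on 4 of 4 arrays, from -1.21 to -0.21, and was not called (adjusted p = 0.259), while PYK10, which encodes an abundant ER body beta-glucosidase, fell by 2.01 ± 0.11 with an adjusted p of 0.032. Where the nai1-1 lesion lies relative to the NAI1 probe is not given, so that probe does not check the labels. Under the opposite convention PYK10 would instead be higher in a mutant that lacks the usual ER bodies. Arrays 1 and 2 were wider than arrays 3 and 4, with median absolute deviations over all probes of 0.26, 0.22, 0.15 and 0.12 in array order.

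EXPA7 was higher in nai1-1 on 4 of 4 arrays, by a mean of 1.50-fold. Its log2 ratios were 0.62 on array 1, 0.37 on array 2, 0.56 on array 3 and 0.79 on array 4. Both dye orientations lay above 0, with a mean of 0.71 where nai1-1 was in Cy3 and 0.47 where it was in Cy5. The fitted log2 ratio was 0.59 ± 0.09 (SE, n = 4), with a 95% interval from 0.35 to 0.82. The unadjusted p was 0.00201 and the adjusted p was 0.102, so EXPA7 did not pass the threshold over all probes. The exact two-sided sign-flip test over the 4 arrays gave p = 0.13, which is the smallest value that 4 arrays allow.

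EXPA18 was also above Col-0 on 4 of 4 arrays, but by less and with a wider spread. Its log2 ratios were 0.25 on array 1, 0.10 on array 2, 0.80 on array 3 and 0.38 on array 4. Array 3 held the high value, and arrays 1 and 2 held the low ones. The fitted log2 ratio was 0.38 ± 0.14 (SE, n = 4), which is 1.30-fold, with a 95% interval from -0.01 to 0.77. It did not pass the threshold (unadjusted p = 0.0521, adjusted p = 0.394), and the exact sign-flip test again gave its smallest p of 0.13. Without array 3 the fitted log2 ratio was 0.21, and without array 2 it was 0.56. Ratios above 0 on all 4 arrays were found for 12.9% of single-gene probes, so the sign alone does not set EXPA7 and EXPA18 apart.

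**Figure D1:**
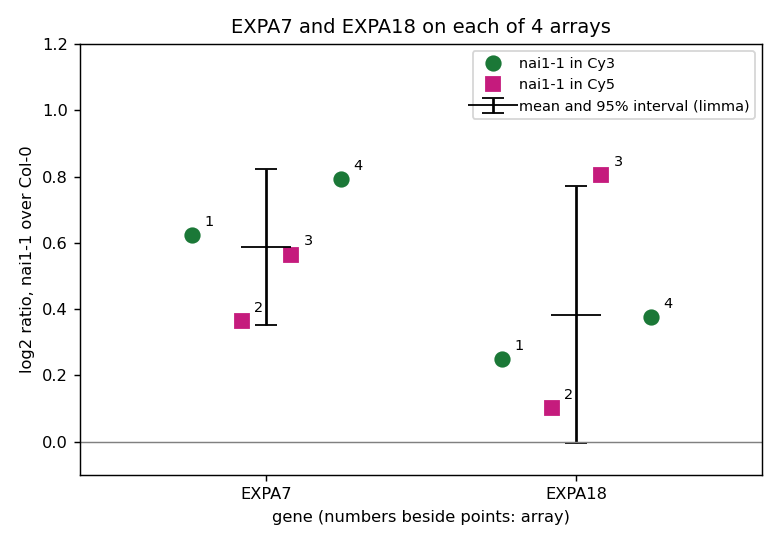
Log2 ratio of nai1-1 over Col-0 (vertical axis) for EXPA7 and EXPA18 on each of 4 arrays, numbered beside the points, with circles for nai1-1 in Cy3 and squares for nai1-1 in Cy5. The bars are the limma mean and its 95% interval, from 0.35 to 0.82 for EXPA7 and from -0.01 to 0.77 for EXPA18, and all 8 points lie above 0.

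The genes differed in which arrays were high. EXPA7 was highest on array 4 and lowest on array 2, and EXPA18 was highest on array 3 and lowest on array 2. EXPA7 exceeded EXPA18 by 0.38 on array 1, by 0.26 on array 2 and by 0.42 on array 4, and the difference was -0.24 on array 3. The mean difference, EXPA7 minus EXPA18, was 0.20 with an SD of 0.30 over 4 arrays. That is less than the SD between arrays, and the difference changed sign on array 3. The exact two-sided sign-flip test gave p = 0.25, where the smallest p that 4 arrays allow is 0.13, so it could not have passed 0.05. By dye orientation the difference was 0.40 where nai1-1 was in Cy3 and 0.01 where it was in Cy5.

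Because the arrays differ in width, each ratio was also placed among the 9335 single-gene probes of its own array. EXPA7 exceeded 90.7% of these probes on array 1, 86.4% on array 2, 96.3% on array 3 and 99.4% on array 4. EXPA18 exceeded 71.7%, 59.8%, 98.9% and 95.7% on arrays 1 to 4. Both genes therefore stood further into the upper tail on the narrower arrays 3 and 4 than on arrays 1 and 2. Over the 4 arrays, 123 single-gene probes, EXPA7 included, had a mean at least as high as that of EXPA7, and 473 reached that of EXPA18. The lowest of the 4 ratios of EXPA7 was matched or exceeded by the lowest ratio of 57 probes, itself included, and that of EXPA18 by 508.

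**Figure D2:**
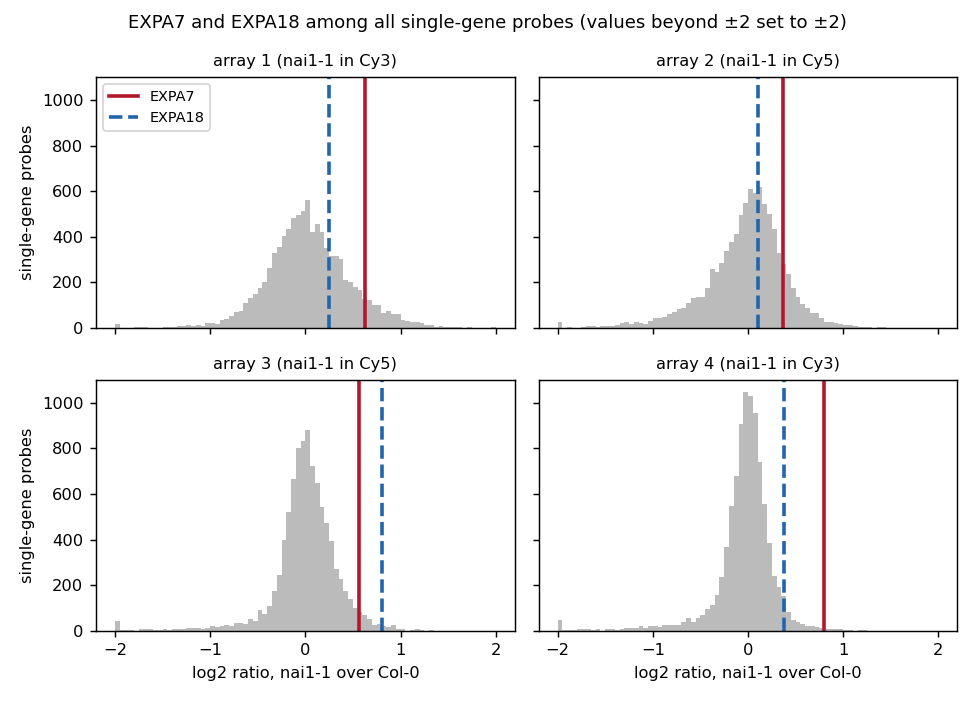
Histograms of the log2 ratios of 9335 single-gene probes on each of 4 arrays (horizontal axis, nai1-1 over Col-0; vertical axis, number of probes), with a solid line at EXPA7 and a dashed line at EXPA18. EXPA7 lies above 86.4% to 99.4% of the probes of each array, while EXPA18 lies above 59.8% of them on array 2 and 98.9% on array 3.

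Whether EXPA7 passed the threshold depended on which other probes entered the fit. Of the 22575 probes, 1016 were deposited with an exact 0 on some array, 143 of them on all 4, and the probes of EXPA7 and EXPA18 held none. Without the 1016 probes, EXPA7 passed (adjusted p = 0.0357), at a background of 778 probes or 3.61%, of which 133 or 0.617% were higher in the mutant. It also passed without only the 143 probes (adjusted p = 0.0446, background 3.04%) and in a fit on single-gene probes (adjusted p = 0.0167, background 6.11%). EXPA18 did not pass in these fits, with adjusted p-values of 0.263, 0.287 and 0.183. When arrays 1 and 2, and arrays 3 and 4, were averaged as 2 replicates without exact 0 values, EXPA7 had an adjusted p of 0.147 and EXPA18 of 0.412. With exact 0 values dropped, the call of EXPA7 was also lost when any 1 of the 4 arrays was left out (adjusted p from 0.0683 to 0.175 with limma). Dropping probes with an exact 0 left every log2 ratio of EXPA7 and EXPA18 as it was.

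Gene-specific dye effects, which the fit estimates as Cy5 over Cy3, were -0.12 for EXPA7 and 0.07 for EXPA18, and neither passed the threshold (adjusted p = 0.803 and 0.921). The residual standard deviation was 0.131 for EXPA7 and 0.356 for EXPA18. Of the single-gene probes, 25.4% had a smaller residual spread than EXPA7 and 80.5% a smaller one than EXPA18.

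**Figure D3:**
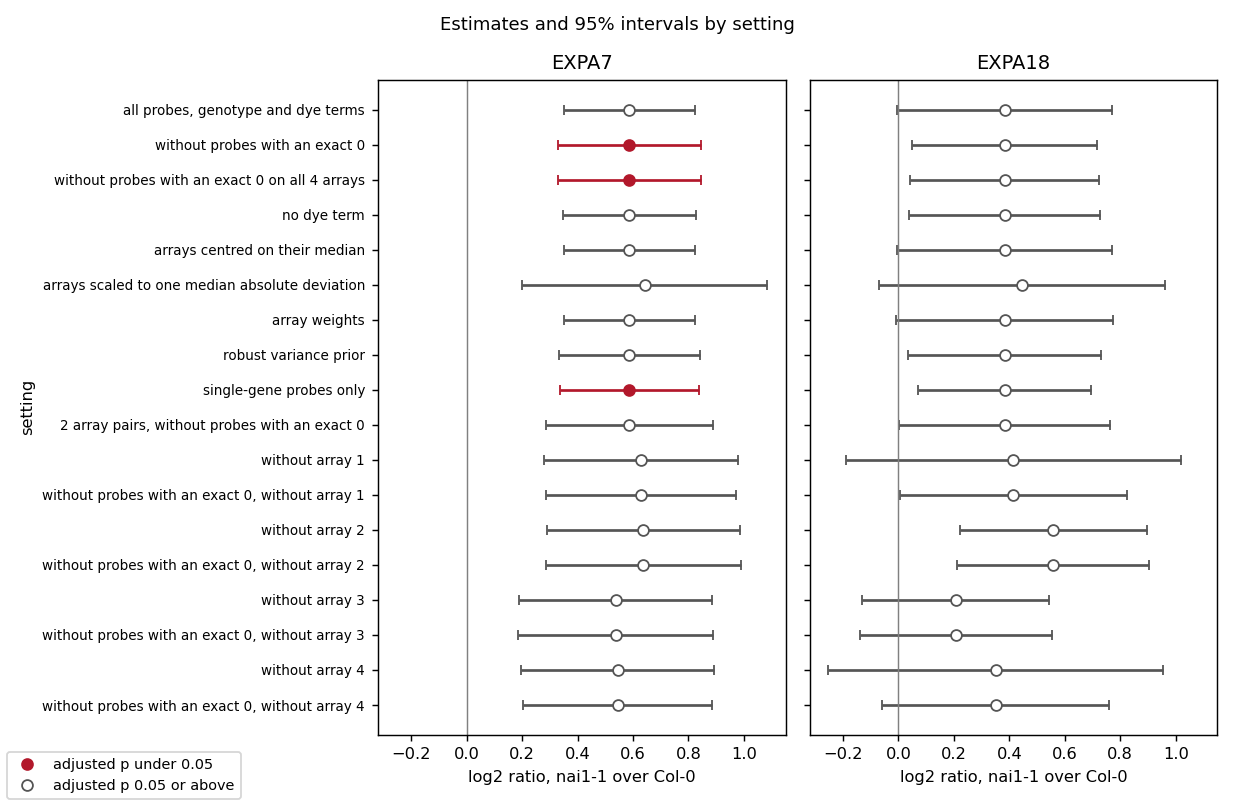
Fitted log2 ratio of nai1-1 over Col-0 (horizontal axis) with its 95% interval for EXPA7 and EXPA18 under 18 settings of the fit (vertical axis), filled in red where the adjusted p was under 0.05. The estimates lie between 0.54 and 0.64 for EXPA7, which passed in 3 settings, and between 0.21 and 0.56 for EXPA18, which passed in 0.

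Across the expansin family, alpha- and beta-expansins lay mostly above 0 and a pair of expansin-like A genes lay well below it. Of 36 listed family members 15 had a single-gene probe: 9 of 26 alpha-expansins, 3 of 6 beta-expansins and 3 of 4 expansin-like genes. Means lay above 0 for 8 of the 9, 3 of the 3 and 1 of the 3 in that order, beside 5141 of 9335 single-gene probes. With limma on all probes 0 of the 15 passed, and 7 had an unadjusted p under 0.05, against 12.9% of all probes. Without exact 0 values 4 passed as higher (EXPA7, EXPA9, EXPA15 and EXPB3) and 2 as lower (EXLA2 and EXLA3), against backgrounds of 0.617% for higher and 2.99% for lower. The median over the 15 genes was 0.11, with array medians from 0.10 to 0.19, and the median over all single-gene probes was 0.02. Since roots were extracted whole, a difference in the share of root hair or other cells and a difference in RNA per cell cannot be told apart for any of these genes. Signal that a probe may take up from a related expansin was not assessed, since the probes' sequences were not used here.

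EXPA15, an alpha-expansin, had the highest mean of the family. Its ratios were 0.93, 0.66, 1.59 and 1.25 on arrays 1 to 4. All 4 lay above Col-0, and the mean of 1.11 ± 0.18 is 2.16-fold (adjusted p = 0.123 over all probes and 0.0187 without exact 0 values). EXPA9, another alpha-expansin, had 1.24, 0.88, 0.66 and 0.39 on arrays 1 to 4. Its order over the arrays was unlike that of EXPA7 or EXPA18, with the highest value on array 1 and the lowest on array 4. The mean was 0.79 ± 0.17, or 1.73-fold, with an adjusted p of 0.179 over all probes and 0.0458 without exact 0 values.

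The 5 other measured alpha-expansins did not pass in either fit. EXPA8 was above Col-0 on 4 of 4 arrays in a narrow range from 0.13 to 0.21, with a mean of 0.17 ± 0.08. EXPA16 ran from -0.40 to 0.80 with a mean of 0.11 ± 0.13. It was at -0.40 and -0.19 on arrays 1 and 4, where nai1-1 was in Cy3, and at 0.80 and 0.22 on arrays 2 and 3. Its sign followed the dye, but its dye effect of 0.40 did not pass the threshold with limma (adjusted p = 0.803). EXPA4 had a mean of 0.08, EXPA20 of 0.07 and EXPA21 of -0.12. Among the 7 measured alpha-expansins other than EXPA7 and EXPA18, the median was 0.11 and 3 were above 0 on all 4 arrays.

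Among the beta-expansins, EXPB3 had ratios of 1.24, 0.28, 0.89 and 0.81 on arrays 1 to 4. It was above Col-0 on all of them, with a mean of 0.80 ± 0.15, or 1.75-fold (adjusted p = 0.143, and 0.0327 without exact 0 values). EXPB1 lay between -0.05 and 0.67 with a mean of 0.30 ± 0.11, and EXPB4 had a mean of 0.05 ± 0.08. EXLA2 and EXLA3 had the opposite sign on all 4 arrays, as did 12.2% of single-gene probes. EXLA2 was between -1.46 and -0.87 on the 4 arrays, with a mean of -1.14 ± 0.12, which is 2.21-fold lower (adjusted p = 0.0664, and 0.00688 without exact 0 values). EXLA3 was between -2.04 and -0.87, with a mean of -1.57 ± 0.23, or 2.97-fold lower (adjusted p = 0.102, and 0.0105 without exact 0 values). EXLB1 had a mean of 0.01 ± 0.11. When pairs of arrays were averaged as 2 replicates without exact 0 values, EXLA2 passed (adjusted p = 0.0441) and no other measured family member did (background 0.561%). With 1 array left out in limma without exact 0 values, these calls rested on particular arrays. EXLA2 lost its call without array 2 (adjusted p = 0.0577), EXPA15 without array 3 (0.0699), and EXLA3 without array 2 (0.0577) or array 3 (0.0747). EXPA9 and EXPB3 passed only when array 4 was the one left out (adjusted p = 0.00986 and 0.0246), and reached 0.257 and 0.149 at most in the other 3 fits.

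**Figure D4:**
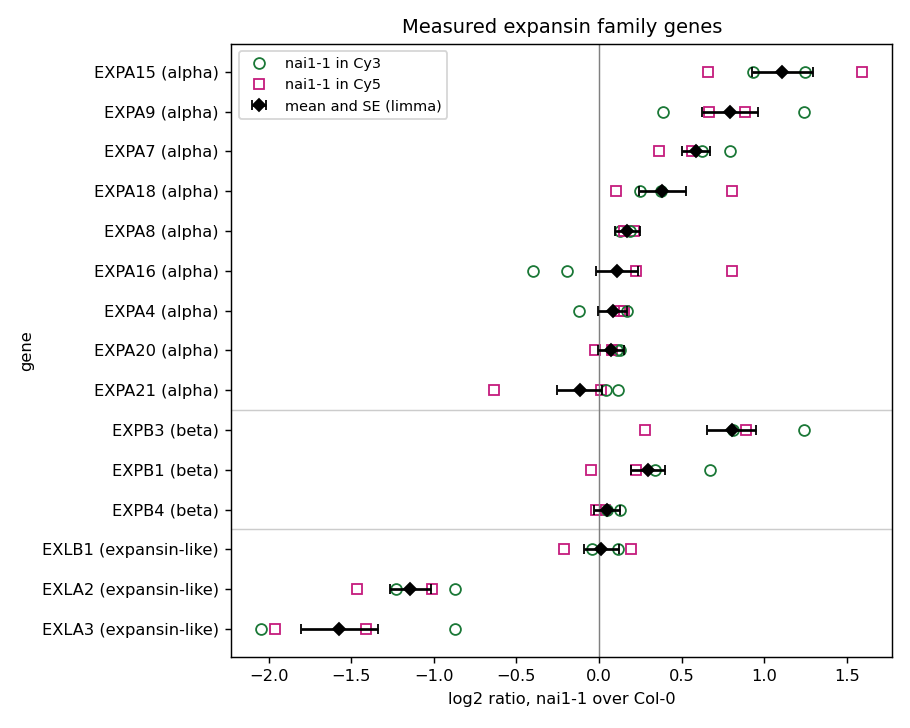
Log2 ratio of nai1-1 over Col-0 (horizontal axis) for the 15 measured expansin family genes (vertical axis), grouped as alpha-expansins, beta-expansins and expansin-like genes, with open symbols for single arrays by dye and diamonds for the limma mean with its SE. Among the alpha-expansins, EXPA7 at 0.59 and EXPA18 at 0.38 come after EXPA15 at 1.11 and EXPA9 at 0.79, while EXLA2 and EXLA3 lie at -1.14 and -1.57.

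Other root hair wall genes with a probe had means from 0.35 to 0.58, beside 0.59 for EXPA7 and 0.38 for EXPA18. The list holds extensins, proline-rich proteins, peroxidases and xyloglucan-modifying enzymes tied to root hairs, and 4 of its 21 genes were measured. All 4 had means above 0, as did 5141 of 9335 single-gene probes. On 4 of 4 arrays 3 of the 4 genes lay above 0, against 12.9% of all single-gene probes. The median was 0.48, with array medians of 0.46, 0.08, 0.59 and 0.64. With limma 0 of the 4 passed over all probes or without exact 0 values, and 3 had an unadjusted p under 0.05, against 12.9% of all probes.

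XTH26, a xyloglucan endotransglucosylase/hydrolase gene expressed in root hairs, had 0.27, 0.14, 1.11 and 0.81 on arrays 1 to 4. Like EXPA18 it was low on arrays 1 and 2 and highest on array 3. Its mean was 0.58 ± 0.20 (adjusted p = 0.367, and 0.187 without exact 0 values). AT5G17820 had a mean of 0.51 ± 0.15, with 1.09 on array 1 and 0.03 on array 2. AT4G26010 had a mean of 0.46 ± 0.18 and was below 0 on array 2 alone, at -0.17. AT1G30870 lay between 0.20 and 0.55 on the 4 arrays, with a mean of 0.35 ± 0.08.

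Of 28 listed genes of root hair tip growth 3 were measured, 2 with means below 0 and 1 above. CSLD2, which encodes a cellulose synthase-like protein that acts in hair growth, had -0.24, -0.88, -0.71 and -0.58 on arrays 1 to 4. It was below Col-0 on all of them, with a mean of -0.60 ± 0.10 (adjusted p = 0.121, and 0.0397 without exact 0 values). FER, the receptor kinase FERONIA, was at -0.50 ± 0.11 with values between -0.83 and -0.06 (adjusted p = 0.201, and 0.0949 without exact 0 values). SCN1, a RhoGDI that restricts where hairs form, was above Col-0 on 4 of 4 arrays, between 0.02 and 0.14, with a mean of 0.10 ± 0.08. Over all probes 0 of the 3 passed with limma (2 at an unadjusted p under 0.05, against 12.9% of all probes), and without exact 0 values CSLD2 passed as lower, against a background of 2.99%. That call remained without array 1 (adjusted p = 0.0446) and was lost without array 2, 3 or 4 (adjusted p from 0.0899 to 0.237).

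Regulators were hardly covered by the named single-gene probes. A gene counted as not measured, here or in the other lists, may still have a probe among the 13200 that the annotation does not list. Of 20 listed root hair regulators 1 was measured, the single-repeat MYB gene TRY, at 0.15 ± 0.13 with values between -0.22 and 0.35. Of 17 auxin and ethylene genes of hair growth 1 was measured, the ethylene signalling transcription factor gene EIN3, at 0.01 ± 0.17. None of the 17 listed root-hair-specific (RHS) genes could be matched to a probe, so they were not used here. The same held for 4 of 6 root hair cell markers, so EXPA7 and EXPA18 were the only measured ones, and for both markers of the non-hair epidermis, GL2 and WER.

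The XTH family, whose enzymes cut and rejoin xyloglucan in the wall, showed no common sign. Of 33 genes 9 were measured, 5 with means above 0 and 4 below, and the median was 0.02. Of all 9335 single-gene probes, 5141 had means above 0. Among the 5 XTH genes was XTH26, which is also on the root hair wall list. With limma 0 of the 9 passed over all probes or without exact 0 values. An unadjusted p under 0.05 was found for 2, XTH20 and XTH26, against 12.9% of all probes. XTH20 was below Col-0 on 4 of 4 arrays, with -0.32, -0.68, -0.62 and -0.97 and a mean of -0.65 ± 0.13 (adjusted p = 0.173, and 0.0545 without exact 0 values, or 0.0189 when array 1 was also left out). XTH33 was at -0.20 ± 0.11 and XTH29 at -0.19 ± 0.09.

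**Figure D5:**
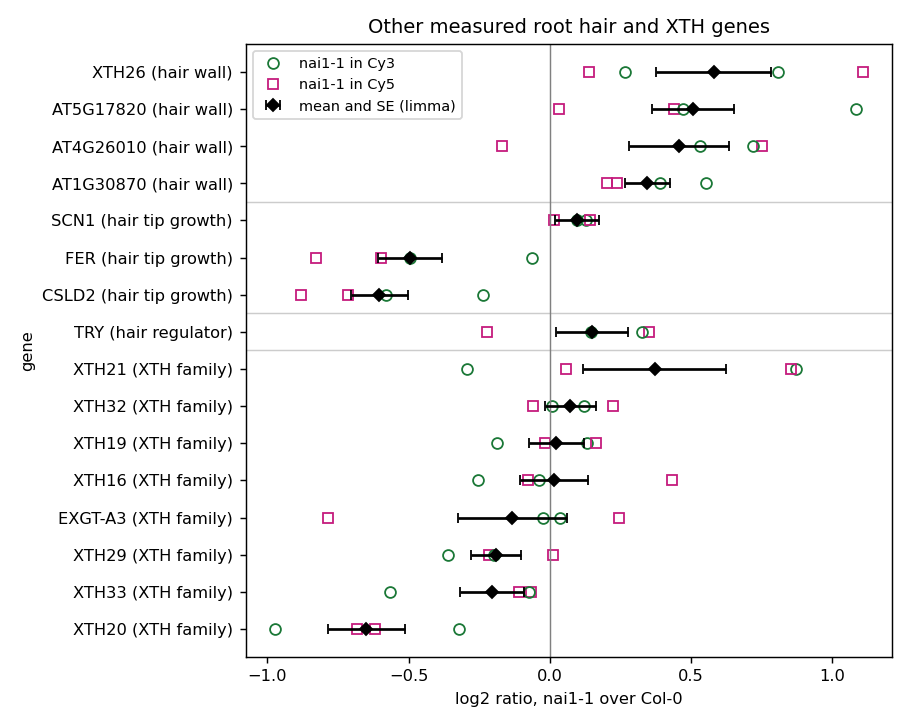
Log2 ratio of nai1-1 over Col-0 (horizontal axis) for the measured genes of the root hair wall, hair tip growth, hair regulator and XTH lists (vertical axis), with open symbols for single arrays by dye and diamonds for the limma mean with its SE. The 4 hair wall genes have means from 0.35 to 0.58, and CSLD2, FER and XTH20 lie between -0.65 and -0.50.

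Markers of other tissues were measured in small part. Of 10 photosynthesis genes, which mark shoot tissue, 5 were measured, with a median of -0.10 and array medians from -0.39 to 0.14, and 0 passed with limma over all probes or at an unadjusted p under 0.05. PORB was at 0.32 ± 0.19, LHCB4.1 at -0.18 ± 0.10, PSAE-1 at -0.12 ± 0.08 and RCA at -0.10 ± 0.08. Of 9 endodermis genes 1 was measured, GSO1, at 0.20 ± 0.14, and the 8 xylem and stele genes and 6 root cap and tip genes had no named probe. The part of cell composition in the ratios of EXPA7 and EXPA18 was not tested.

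The single-gene probes most like EXPA7 and EXPA18 were found by the Euclidean distance between the 4 log2 ratios, over 9246 other probes without an exact 0. A small distance means like values on the same 4 arrays. Nearest to EXPA7 was AT5G48800, at a distance of 0.0983, with 0.61, 0.37, 0.66 and 0.81 on arrays 1 to 4. Next were AT1G12150 at 0.202, the histone H2B gene HTB2 at 0.213, AT2G29620 at 0.222 and AT4G18630 at 0.248. Nearest to EXPA18 was AT5G10960, at a distance of 0.149, with 0.32, 0.01, 0.71 and 0.39 on arrays 1 to 4. Next were the glutaredoxin gene GrxC5 at 0.16, AT4G29980 at 0.176, AT2G48090 at 0.191 and AT5G37980 at 0.192. EXPA7 and EXPA18 lay at a distance of 0.666 and were not among each other's 5 nearest probes. Of the 9246 probes, EXPA18 ranked 234th from EXPA7, and EXPA7 ranked 696th from EXPA18. Most probes thus lay further from each gene than the other gene did.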

How the data were processed

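The authors deposited log10 ratios, 1 for each probe on each array. Per the submitters' processing notes they come from Agilent Feature Extraction 7.1. How background and dyes were corrected, and which dye is the numerator, is not given in the sources used. Ratios were converted to log2 by division by log10 of 2, and the sign of arrays 1 and 4 was turned so that the mutant is the numerator. As deposited, over all probes, arrays of the same dye orientation correlated at 0.444 and 0.662 (Pearson) and those of opposite orientation between -0.144 and 0.132. After turning, over single-gene probes, pairs of arrays correlated from 0.33 (arrays 1 and 3) to 0.75 (arrays 3 and 4). Both of these pairs are of opposite orientation. No further normalization was applied, since the array medians were 0, 0, -0.00 and 0. No array repeated another throughout, since a pair of arrays held the same value, 0 included, at 178 to 502 of the 22575 probes. Intensities and flags were not analysed here, so dim, saturated and control spots stayed in, and the number of arrays limits the precision.

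Probe names come from the platform annotation. Symbols were updated with a RefSeq gene table (assembly TAIR10.1), in which the Entrez identifiers of 9317 of 9335 single-gene probes were found. Another 40 probes had several genes and 13200 were not listed. The fit used limma 3.58.1 in R 4.3.3 (lmFit, eBayes, two-sided, Benjamini-Hochberg). Its mean estimates were checked on simulated data with independent noise on each array. Arrays that share RNA were not simulated, so the check does not bear on the calls. Gene lists were written from general knowledge, by locus, and matched by locus. Named were EXPA7 and EXPA18, every measured expansin, from each further list the 4 measured genes with the smallest p, and the 5 nearest probes to each gene. The genes, lists and alternatives were chosen with earlier results of these data known. The alternatives changed the probes fitted, the dye term, centring, scale, array weights, the variance prior, the arrays and the direction.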

Additional observations from a re-analysis of the deposited data

Results flagged for a closer look

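In 4 of 48 values tested (single genes, list medians and the difference between EXPA7 and EXPA18), a single array lay far from the remaining 3 (Dixon's test). Chance alone flags about 1 in 20 groups, or 2.4 of 48. EXPA7, EXPA18 and their difference were not among them. EXPA4 was at -0.12 on array 1 against 0.13 to 0.17 on the others. EXPA21 was at -0.64 on array 2 against 0.01 to 0.11. XTH33 was at -0.56 on array 1 against -0.11 to -0.07. AT4G18630, one of the probes nearest to EXPA7, was at 0.22 on array 2 against 0.65 to 0.70.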

How the results depend on the processing

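EXPA7 kept its sign under all alternatives except the turned ratio, with estimates from 0.54 to 0.64. It passed at 0.59 in the 3 fits without exact 0 values, without probes at 0 on all 4 arrays and on single-gene probes, and in no other. EXPA18 ran from 0.21 to 0.56 and passed in none. Under Cy3 over Cy5 they were at -0.59 and -0.38. Leaving out 1 array gave 0.54 to 0.64 for EXPA7 and 0.21 to 0.56 for EXPA18, with 0 to 939 probes called, the 0 in each fit over all probes. With 1 array left out, the difference EXPA7 minus EXPA18 was 0.13 to 0.35 as a plain mean over the other 3 arrays, and 0.08 to 0.33 between the fitted values, which weight the dye orientations equally.

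The 112 called probes became 778 without exact 0 values, 682 without probes at 0 on all 4 arrays, 531 with a robust variance prior, 570 of single-gene probes, 394 without a dye term and 0 after scaling the arrays to one width. Expansin genes called were 0, and 6, 5, 3, 6 and 1 in the first 5 of these, 1 with pairs of arrays, and 0 to 5 with 1 array left out. For XTH genes the count was 1 on single-gene probes and 0 to 1 with 1 array left out. For tip growth genes it was 1 in the fits without exact 0 values, without probes at 0 on all 4 arrays and on single-gene probes, and 0 to 1 with 1 array left out. The cause of these changes was not tested. Genes near 0 changed sign with 1 array left out: EXPA16 (-0.0359 to 0.255), EXPA21 (-0.28 to 0.0454), EXLB1 (-0.0888 to 0.115) and EIN3 (-0.152 to 0.176, and -0.00271 after scaling). Each array sets both genotypes against each other, so every ratio is already a paired comparison. Replicate numbers have no second group to pair, and no further pairing was made.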

Other observations

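EXPA7 and EXPA18 both lie on chromosome 1, with 4009 protein-coding genes between them in the RefSeq table of assembly TAIR10.1. Of the 3 protein-coding genes on each side of each, those with a single-gene probe were chosen after the results of EXPA7 and EXPA18 had been seen. Beside EXPA7, AT1G12540 was at -0.03 ± 0.13, with values from -0.43 to 0.17, and AT1G12570, the next gene, was at -0.06 ± 0.10, with values from -0.39 to 0.15. Near EXPA18, AT1G62970 was at 0.06 ± 0.08, with values from -0.02 to 0.13. None of these 3 neighbours passed with limma over all probes (adjusted p from 0.768 to 0.949) or at an unadjusted p under 0.05.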
